A study of Mus musculus with 23 samples.

Results

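The genes described are 10 negative feedback regulators of mitogen-activated protein (MAP) kinase signalling: the dual-specificity phosphatases Dusp1, Dusp4, Dusp5, Dusp6, Dusp8, Dusp10, Dusp14 and Dusp16, and the Sprouty genes Spry2 and Spry4. They were found by gene symbol among the 54393 genes of the deposited tables. All 10 passed the low-count filter that left 25829 genes for testing. Their levels were measured by bulk RNA-seq of connecting tubules and cortical collecting ducts microdissected from mouse kidneys, in 23 libraries of 4 groups. KO-NK (n = 6) and KO-LK (n = 6) were mice with induced knockout of Nr3c2, the mineralocorticoid receptor gene, fed a normal or a low potassium diet for 4 days. CT-HK (n = 6) and CT-NK (n = 5) were mice without induction, fed a high or a normal potassium diet for the same time. Every mouse of the 4 groups carried Pax8-rtTA, TRE-LC-1 and MRflox/flox, a doxycycline-dependent Cre system acting on floxed Nr3c2. The Pax8 promoter is active along the whole nephron and collecting duct, so the deletion was not limited to the segments sampled. Knockout mice drank 2 mg/ml doxycycline with 5% sucrose for 2 weeks and then had 2 weeks of washout on a rescue diet. Control mice drank the sucrose water without doxycycline, so knockout and earlier doxycycline cannot be told apart. The labels do not say whether controls ate the rescue diet, and they give no age.

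Extracellular signal-regulated kinase (ERK), c-Jun N-terminal kinase (JNK) and p38 are the main MAP kinases. Each is switched on by phosphorylation of a threonine and a tyrosine in its activation loop, and dual-specificity phosphatases remove these phosphates. Several of these phosphatases are themselves immediate early or delayed early targets of the kinases they switch off, and Sprouty proteins dampen receptor tyrosine kinase signalling to Ras and ERK, which gives a negative feedback loop. In the distal nephron, aldosterone acts through the mineralocorticoid receptor on genes of sodium and potassium transport, and MAP kinases are among the pathways that modify that transport.

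The promoters of 3 of the phosphatase genes are shown because they carry, just upstream of the transcription start, exact copies of elements through which rapidly induced genes are commonly controlled. These 3 genes also had the largest knockout to CT-HK differences described below. Both were grounds for the choice, so elements and differences go together here by choice, and CT-HK mice also differed in diet. On the same diet, KO-NK against CT-NK, the order was Dusp4 (log2 fold change 1.86), Dusp5 (1.65), Spry2 (1.02), Dusp8 (0.99) and Dusp1 (0.81). RefSeq promoter sequences (GRCm38.p6) were at hand for 8 of the 10 genes, not for Dusp4 and Spry4. The window runs from 250 to 51 bases before the start annotated by RefSeq, 5′ to 3′ on the gene's strand. The loci given below for Dusp1 and Dusp8 are GENCODE spans that reach further upstream and contain their windows. Capitals mark the cAMP response element TGACGTCA in Dusp1 and Dusp8 and a tandem pair of serum response elements (CArG boxes) in Dusp5. The windows lie at chr17:26508523-26508722 (minus strand) for Dusp1, chr19:53528895-53529094 (plus strand) for Dusp5 and chr7:142095335-142095534 (minus strand) for Dusp8.
Dusp1: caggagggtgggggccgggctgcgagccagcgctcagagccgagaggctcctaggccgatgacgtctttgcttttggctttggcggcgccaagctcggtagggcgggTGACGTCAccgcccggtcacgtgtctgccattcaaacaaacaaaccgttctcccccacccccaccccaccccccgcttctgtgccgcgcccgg
Dusp5: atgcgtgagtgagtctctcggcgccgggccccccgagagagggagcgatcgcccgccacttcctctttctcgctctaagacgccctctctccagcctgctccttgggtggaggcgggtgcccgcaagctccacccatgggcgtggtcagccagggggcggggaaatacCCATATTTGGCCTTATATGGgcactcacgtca
Dusp8: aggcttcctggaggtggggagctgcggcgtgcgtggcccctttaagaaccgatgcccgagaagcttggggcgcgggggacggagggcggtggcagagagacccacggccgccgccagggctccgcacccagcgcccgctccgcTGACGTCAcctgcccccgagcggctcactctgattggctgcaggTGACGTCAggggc

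The element in Dusp1 lay 143 to 136 bases before the start, and the copies in Dusp8 lay 107 to 100 and 63 to 56 bases before it. The CArG boxes of Dusp5 lay 82 to 73 and 72 to 63 bases before the start. Both strands were searched for 5 motifs in the same window of 32851 RefSeq promoters. TGACGTCA was in 2 of the 8 promoters and in 0.828% of all promoters, and the CArG box was in 1 of the 8 and in 1.157% of all. The ETS core CCGGAA was in 1 of the 8, that of Dusp14, and in 8.027% of all. The AP-1 site TGANTCA and the glucocorticoid receptor core AGAACA were in 0 of the 8, against 5.574% and 13.242% of all promoters. These are matches of letters in a short window, not measured binding.

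Depth was 16158408 to 34154475 estimated counts per library, and the lowest member count in any library was 19, for Spry4. Nr3c2 itself had 34.15 to 74.08 CPM (counts scaled to library size with edgeR's TMM factors) in the 12 knockout libraries and 66.55 to 151.5 CPM in the 11 control libraries. The ranges overlapped, and the log2 fold change was -0.88 in KO-NK against CT-NK (SE 0.22, edgeR adjusted p = 0.0373) and -0.99 in KO-LK against CT-NK (SE 0.22, edgeR adjusted p = 0.0134). Markers of principal, intercalated and connecting tubule cells were detected in every group, none of the listed markers being at 0 throughout a group. Summed connecting tubule markers (5 genes) were lower in knockout libraries, at 7745 to 14930 CPM in KO-NK and 4663 to 18650 CPM in KO-LK, against 19280 to 63050 CPM in CT-HK and 27650 to 39030 CPM in CT-NK, and their part in the differences below was not tested. Of these 5 genes, 3 were called lower in KO-NK and 2 in KO-LK against CT-NK, and 3 in each knockout group against CT-HK, while 1 was called higher in KO-LK against CT-NK. In bulk tissue, fewer cells of a type and less RNA per cell cannot be told apart. Summed proximal tubule markers (14 genes) were at 795.3 to 5207 CPM in KO-NK and 314.2 to 1332 CPM in KO-LK, against 237.1 to 26780 CPM in CT-HK (the highest in replicate 6) and 423.3 to 14170 CPM in CT-NK (the highest in replicate 5). All 14 had negative log2 fold changes in the 4 comparisons of knockout with control, of which 2 were called, in KO-LK against CT-HK. Summed thick ascending limb markers (5 genes) were at 207.2 to 2869 CPM in KO-NK and 295.9 to 2311 CPM in KO-LK, against 166.7 to 1490 CPM in CT-HK and 129.2 to 1149 CPM in CT-NK. Their median log2 fold change against CT-NK was 1.18 for KO-NK and 1.27 for KO-LK, and against CT-HK it was 0.43 for KO-NK and 0.52 for KO-LK, with 1 gene called higher in each KO-LK comparison with controls. The part of these segments in the results was not tested beyond the fits with segment covariates given at the end. In 8 libraries, 2 of KO-NK, 3 of KO-LK, 1 of CT-HK and 2 of CT-NK, over 2500 CPM of the library total lay on olfactory and vomeronasal receptor genes.

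KO-NK and CT-NK mice ate the same normal potassium diet, and between them 1 of the 10 genes passed the test, Dusp4, which was higher in KO-NK. This was read against a background of 0.937% of all tested genes called higher. Dusp4 was also the 1 gene called higher in KO-LK against CT-NK, where 0.914% of tested genes were. Against CT-HK, 7 genes were higher in KO-NK (background 2.46%) and 3 were higher in KO-LK (background 2.2%). Of the 10 genes, 0 were called lower in each of these 4 comparisons, while all tested genes gave 0.763% lower for KO-NK and 1.13% for KO-LK against CT-NK, and 3.32% for KO-NK and 3.29% for KO-LK against CT-HK. Without the 8 libraries rich in chemosensory receptor counts, 0 members were called higher in each knockout group against CT-NK. Against CT-HK, 5 were called higher in KO-NK and 3 in KO-LK in that fit. Of all 22357 genes tested in it, 103 were called higher in KO-NK and 52 in KO-LK against CT-NK. Against CT-HK these numbers were 610 and 371. At an unadjusted p under 0.05, 5 of the 10 genes were higher and 0 lower in each knockout group against CT-NK, and 8 were higher and 0 lower in each against CT-HK. Over all tested genes the shares at that level were 5.99% higher and 5.71% lower for KO-NK against CT-NK, 6.47% higher and 6.42% lower for KO-LK against CT-NK, 7.05% higher and 10.1% lower for KO-NK against CT-HK, and 6.59% higher and 9.27% lower for KO-LK against CT-HK. The median log2 fold change of the 10 genes, beside that of all tested genes, was 0.68 beside 0.15 in KO-NK against CT-NK and 0.48 beside -0.04 in KO-LK against CT-NK. Against CT-HK it was 1.24 beside 0.21 for KO-NK and 0.99 beside -0.01 for KO-LK. Comparisons that use the same control or knockout libraries are not independent of each other, and of the 4 only KO-NK against CT-NK compares mice on 1 diet. In the other 3 the diet differs as well as the receptor, and their effects cannot be told apart.

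**Figure D1:**
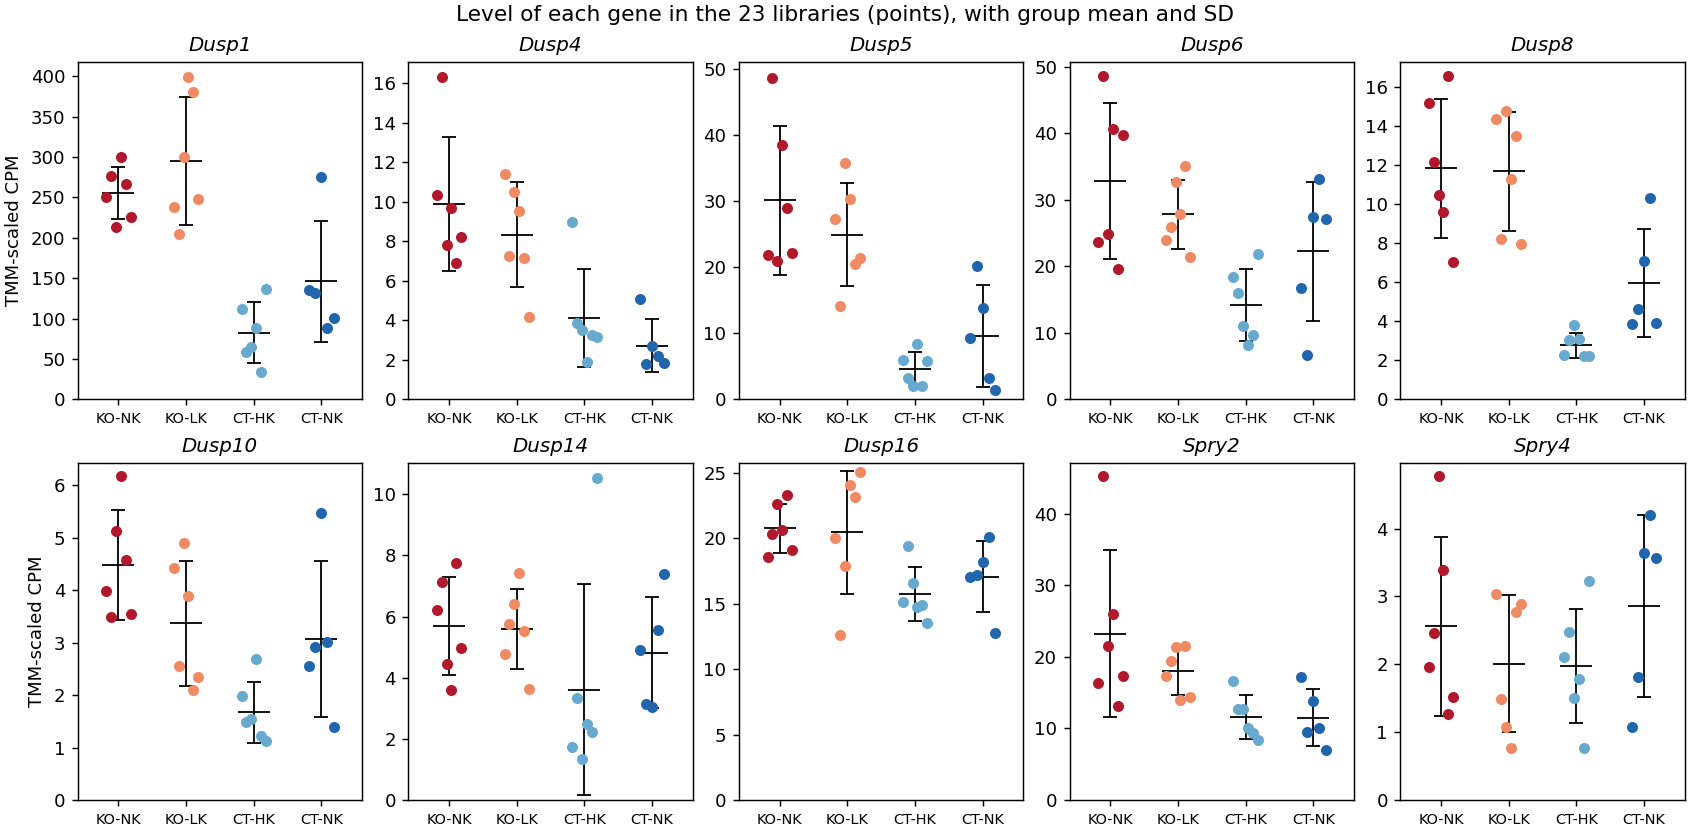
TMM-scaled CPM of each of the 10 genes (vertical axes, starting at 0, a scale of its own per gene) in every library of KO-NK, KO-LK, CT-HK and CT-NK; points are libraries, and bars are the group mean and SD. On this scale Dusp1, Dusp5 and Dusp8 have every knockout library above every CT-HK library. Dusp6, Dusp14, Dusp16, Spry2 and Spry4 overlap between all groups.

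Dusp1, Dusp4 and Dusp5 encode inducible phosphatases of the nucleus. Dusp1 acts on JNK, p38 and ERK, Dusp4 on ERK and JNK, and Dusp5 on ERK. All 3 had higher group means in each knockout group than in each control group, as had every other gene described here except Spry4.

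Dusp1 (ENSMUSG00000024190, chr17:26505590-26562128, minus strand, GRCm38) had every knockout library above every CT-HK library. Its lowest, median and highest values were 213.5, 258.9 and 300.7 CPM in KO-NK, 205.3, 273.8 and 399.4 CPM in KO-LK and 33.62, 76.67 and 136.4 CPM in CT-HK. The 5 CT-NK libraries had 136.0, 132.2, 275.2, 87.96 and 100.2 CPM. Every knockout library also lay above 4 of the 5 CT-NK libraries, the exception being CT-NK replicate 3. The log2 fold change was 1.64 in KO-NK against CT-HK (SE 0.29, edgeR adjusted p = 0.000991) and 1.84 in KO-LK against CT-HK (SE 0.29, edgeR adjusted p = 0.00027). Against CT-NK it was 0.81 for KO-NK (SE 0.30, edgeR adjusted p = 0.215) and 1.01 for KO-LK (SE 0.30, edgeR adjusted p = 0.0831), which did not pass. With the stricter low-count filter both passed, at an edgeR adjusted p of 0.0367 for KO-NK and 0.0164 for KO-LK. The far end of the Dusp1 locus overlaps Ergic1 on the opposite strand, at a mean of 83.79 CPM, and whether counting used strand is not given in the sources used here.

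Dusp4 (ENSMUSG00000031530, chr8:34807297-34819894, plus strand) was the gene that passed against CT-NK in both knockout groups. Its libraries had 6.919, 8.946 and 16.31 CPM in KO-NK and 4.18, 8.391 and 11.41 CPM in KO-LK as lowest, median and highest values, against 1.866, 3.386 and 8.984 CPM in CT-HK. In CT-NK it had 5.06, 1.813, 2.719, 2.192 and 1.835 CPM. On the CPM scale all KO-NK libraries lay above all CT-NK libraries, 1 KO-LK library (replicate 6) fell within the CT-NK range, and CT-HK replicate 1 lay within the ranges of the knockout groups. The log2 fold change was 1.86 in KO-NK against CT-NK (SE 0.37, edgeR adjusted p = 0.00844), 1.61 in KO-LK against CT-NK (SE 0.37, edgeR adjusted p = 0.0182) and 1.27 in KO-NK against CT-HK (SE 0.34, edgeR adjusted p = 0.0258). In KO-LK against CT-HK it was 1.02 (SE 0.34, edgeR adjusted p = 0.0854), which did not pass. Of 13 alternative fits besides leaving 1 library out, 7 called that difference, DESeq2 among them (0.98, DESeq2 adjusted p = 0.0282). Without the 8 libraries rich in chemosensory receptor counts, the call was lost in KO-NK against CT-NK (log2 fold change 1.67, edgeR adjusted p = 0.0776), in KO-LK against CT-NK (1.32, edgeR adjusted p = 0.242) and in KO-NK against CT-HK (1.18, edgeR adjusted p = 0.0655). With no low-count filter the value in KO-NK against CT-HK was 1.17 (edgeR adjusted p = 0.0959). Without the 2 libraries richest in proximal tubule counts it was 1.5 in KO-LK against CT-NK (edgeR adjusted p = 0.0596) and 1.20 in KO-NK against CT-HK (edgeR adjusted p = 0.0619). The counts behind Dusp4 were low, at 37 to 398 estimated counts per library.

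Dusp5 (ENSMUSG00000034765, chr19:53529109-53542431, plus strand) had the largest log2 fold changes of the 10 genes against CT-HK. Lowest, median and highest values were 20.93, 25.52 and 48.72 CPM in KO-NK, 14.2, 24.35 and 35.84 CPM in KO-LK and 2.071, 4.538 and 8.377 CPM in CT-HK. CT-NK libraries were widely spread, with 9.285, 20.16, 13.8, 3.242 and 1.488 CPM. Knockout and CT-HK libraries did not overlap. On the CPM scale every KO-NK library was above every CT-NK library, with 20.93 against 20.16 CPM at the closest, while on the TPM scale these groups overlapped, the lowest KO-NK library being at 7.364 TPM and the highest CT-NK library at 8.137 TPM. The log2 fold change was 2.71 in KO-NK against CT-HK (SE 0.47, edgeR adjusted p = 0.000817) and 2.44 in KO-LK against CT-HK (SE 0.46, edgeR adjusted p = 0.00177). Against CT-NK it was 1.65 for KO-NK (SE 0.48, edgeR adjusted p = 0.0854) and 1.37 for KO-LK (SE 0.47, edgeR adjusted p = 0.154), neither of which passed. DESeq2 called both, at 1.64 for KO-NK (DESeq2 adjusted p = 0.0065) and 1.36 for KO-LK (DESeq2 adjusted p = 0.032).

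Dusp6 (ENSMUSG00000019960, chr10:99263231-99267489, plus strand) encodes the cytoplasmic phosphatase that is specific for ERK, and its transcription is a common readout of ERK activity. It had 19.54, 32.32 and 48.6 CPM in KO-NK, 21.44, 26.87 and 35.05 CPM in KO-LK, and 8.203, 13.51 and 21.91 CPM in CT-HK as lowest, median and highest values. The 5 CT-NK libraries had 16.76, 6.73, 27.39, 33.15 and 27.18 CPM, which lay partly within the knockout ranges. Dusp6 was higher in KO-NK than in CT-HK by 1.21 on the log2 scale (SE 0.31, edgeR adjusted p = 0.0179). With no low-count filter the edgeR adjusted p was 0.0597. In KO-LK against CT-HK it did not pass in the main fit (0.97, SE 0.31, edgeR adjusted p = 0.0669). Of 13 alternative fits besides leaving 1 library out, 8 called that difference, DESeq2 among them (0.92, DESeq2 adjusted p = 0.026). Nor did Dusp6 pass against CT-NK, where the log2 fold change was 0.56 for KO-NK (edgeR adjusted p = 0.554) and 0.32 for KO-LK (edgeR adjusted p = 0.881). The limma fits on TPM called both differences from CT-NK, at 0.86 and 0.96 for KO-NK and 0.80 and 0.90 for KO-LK (limma adjusted p 0.0376 to 0.0457). Those fits called 2907 and 2940 of 25829 genes higher in KO-NK and 4170 and 4158 in KO-LK, beside 242 and 236 in the main fit.

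Dusp8, Dusp10 and Dusp16 encode phosphatases that prefer JNK and p38. Dusp8 (ENSMUSG00000037887, chr7:142079490-142095843, minus strand) had lowest, median and highest values of 7.038, 11.32 and 16.58 CPM in KO-NK and 7.964, 12.41 and 14.77 CPM in KO-LK, against 2.233, 2.664 and 3.814 CPM in CT-HK. In CT-NK it had 3.853, 4.64, 7.118, 10.32 and 3.918 CPM. Knockout and CT-HK libraries were apart, and CT-NK libraries lay between them with 2 (replicates 3 and 4) inside the KO-NK range. With a log2 fold change of 2.09 in KO-NK (SE 0.27, edgeR adjusted p = 3.32e-05) and 2.07 in KO-LK (SE 0.27, edgeR adjusted p = 3.85e-05), Dusp8 had the smallest p of the 10 genes against CT-HK. Against CT-NK the values were 0.99 for KO-NK (SE 0.28, edgeR adjusted p = 0.0738) and 0.97 for KO-LK (SE 0.28, edgeR adjusted p = 0.0718), and neither passed. Both passed with DESeq2 (DESeq2 adjusted p = 0.0139 for KO-NK and 0.0176 for KO-LK), with the stricter low-count filter (edgeR adjusted p = 0.0293 for KO-NK and 0.0434 for KO-LK) and in both limma fits on TPM. The numbers of all genes these limma fits called higher against CT-NK are given with Dusp6.

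Dusp10 had group means of 4.49 ± 1.05 CPM in KO-NK, 3.37 ± 1.19 CPM in KO-LK and 1.68 ± 0.582 CPM in CT-HK (SD, n = 6 each), and 3.07 ± 1.49 CPM in CT-NK (SD, n = 5). It was higher in KO-NK than in CT-HK (log2 fold change 1.42, SE 0.32, edgeR adjusted p = 0.00662), with no overlap between libraries on the CPM scale, and passed in no other comparison in the main fit. With an offset for transcript length the value in KO-NK against CT-HK was 1.05 (edgeR adjusted p = 0.152). In KO-LK against CT-HK it was 1.01 (SE 0.31, edgeR adjusted p = 0.062). Of 12 alternative fits besides leaving 1 library out, 4 called that difference, DESeq2 among them (0.96, DESeq2 adjusted p = 0.0226). Dusp5, Dusp8 and Dusp10 overlap genes of the opposite strand that had means of 0.461, 0.235 and 0.545 CPM. Dusp16 averaged 20.8 ± 1.88 CPM in KO-NK, 20.5 ± 4.69 CPM in KO-LK and 15.7 ± 2.06 CPM in CT-HK (SD, n = 6 each), and 17.1 ± 2.71 CPM in CT-NK (SD, n = 5). Its log2 fold changes between knockout and control groups were 0.26 to 0.40, and none passed (edgeR adjusted p 0.138 to 0.578). Against CT-HK it passed when only the groups compared were fitted, at 0.48 for KO-NK (edgeR adjusted p = 0.0141) and 0.49 for KO-LK (edgeR adjusted p = 0.0348). Both limma fits on TPM called it against CT-HK, at 0.68 to 0.93. Those fits called 5341 and 5479 of 25829 genes higher in KO-NK and 6632 and 6730 in KO-LK against CT-HK. When each of the 23 libraries was left out in turn, Dusp16 passed against CT-HK in 2 fits for KO-NK and 7 for KO-LK. Among them was the fit without KO-LK replicate 2, at 0.45 for KO-NK (edgeR adjusted p = 0.0244) and 0.58 for KO-LK (edgeR adjusted p = 0.00531). That library belongs to neither group of KO-NK against CT-HK.

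Dusp14 encodes a small phosphatase that lacks the kinase-binding domain of the others. It averaged 5.69 ± 1.61 CPM in KO-NK, 5.59 ± 1.32 CPM in KO-LK and 3.61 ± 3.45 CPM in CT-HK (SD, n = 6 each), and 4.81 ± 1.82 CPM in CT-NK (SD, n = 5). The CT-HK spread came from replicate 6, at 10.52 CPM beside 1.352 to 3.35 CPM in the others, which was also the library with the highest proximal tubule sum. None of its comparisons passed with all libraries. Without CT-HK replicate 6 it passed against CT-HK, at a log2 fold change of 1.35 for KO-NK (edgeR adjusted p = 0.00745) and 1.32 for KO-LK (edgeR adjusted p = 0.00802), and both limma fits on TPM called it in these comparisons with all libraries. The numbers of all genes these limma fits called higher against CT-HK are given with Dusp16. The next values are for Dusp14. The 95% intervals of its log2 fold change ran from -0.60 to 1.09 in KO-NK against CT-NK and from -0.16 to 1.46 in KO-NK against CT-HK, so a log2 difference of 1.00 in KO-NK lies inside both.

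Spry2 (ENSMUSG00000022114, chr14:105891947-105896819, minus strand) encodes a Sprouty inhibitor of signalling from growth factor receptors. It had lowest, median and highest values of 13.1, 19.39 and 45.2 CPM in KO-NK, 13.96, 18.32 and 21.49 CPM in KO-LK and 8.306, 11.34 and 16.59 CPM in CT-HK. In CT-NK it had 17.13, 9.465, 13.8, 10 and 7.042 CPM. On the CPM scale the groups overlapped in every comparison, and KO-NK replicate 2 stood highest. On the TPM scale knockout and control libraries did not overlap, the lowest being at 6.294 TPM in KO-NK and 6.394 TPM in KO-LK, against highest values of 5.524 TPM in CT-HK and 5.352 TPM in CT-NK. Spry2 was higher in KO-NK than in CT-HK (log2 fold change 1.00, SE 0.26, edgeR adjusted p = 0.0212). The same size of difference against CT-NK, 1.02 (SE 0.28), had an edgeR adjusted p of 0.0632, and DESeq2 called it (1.01, DESeq2 adjusted p = 0.00657). For KO-LK, Spry2 passed against neither control group. The log2 fold change was 0.63 against CT-HK (SE 0.26, edgeR adjusted p = 0.195) and 0.65 against CT-NK (SE 0.27, edgeR adjusted p = 0.286). Of 13 alternative fits besides leaving 1 library out, 4 called the former and 2 the latter. Without the 8 libraries rich in chemosensory receptor counts, the value in KO-NK against CT-HK was 1.09 (edgeR adjusted p = 0.0616), and with no low-count filter it was 0.92 (edgeR adjusted p = 0.0852). Spry4, a related inhibitor, averaged 2.56 ± 1.32 CPM in KO-NK, 2.01 ± 1.01 CPM in KO-LK and 1.98 ± 0.844 CPM in CT-HK (SD, n = 6 each), and 2.86 ± 1.34 CPM in CT-NK (SD, n = 5). It passed in no comparison, and for KO-NK against CT-NK its log2 fold change was -0.16 (95% interval -1.08 to 0.76).

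**Figure D2:**
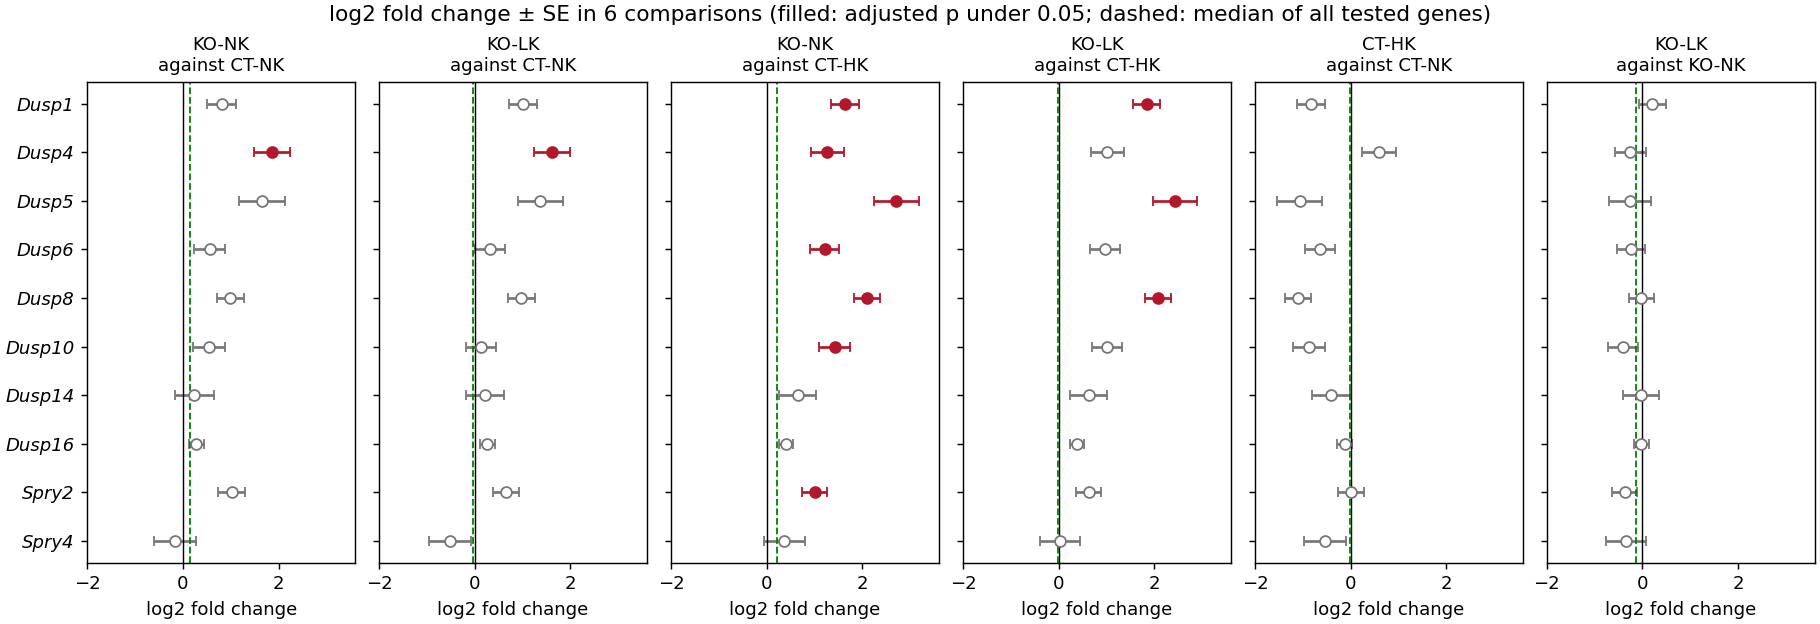
log2 fold change (horizontal axis) of each gene in the 6 comparisons, 1 panel each, with its SE; filled points passed an adjusted p of 0.05 in edgeR's quasi-likelihood test, and the dashed line is the median of all 25829 tested genes. Dusp4 is the filled point in the panels against CT-NK, 7 and 3 genes are filled against CT-HK, and 0 are filled in the diet panels.

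Library ranges were also compared directly, first on TMM-scaled CPM. Between KO-NK and CT-NK, Dusp4 and Dusp5 were apart, 2 of 10 genes beside 1.14% of all tested genes with every library higher. Between KO-LK and CT-NK 0 of 10 were apart, beside 1.01% of all genes. Against CT-HK, Dusp1, Dusp5, Dusp8 and Dusp10 were apart in KO-NK (4 of 10, background 2.05%) and Dusp1, Dusp5 and Dusp8 in KO-LK (3 of 10, background 1.66%). On TPM, where most called genes were higher in knockout libraries, other genes were apart. They were Dusp4 and Spry2 in KO-NK against CT-NK (2 of 10, background 6.11%) and Dusp4, Dusp8 and Spry2 in KO-LK against CT-NK (3 of 10, background 9.64%). Against CT-HK, Dusp1, Dusp4, Dusp5, Dusp6, Dusp8 and Spry2 were apart on TPM in KO-NK (6 of 10, background 10.5%), and the same genes apart from Dusp4 in KO-LK (5 of 10, background 14.6%).

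The diets were also compared within each genotype. High against normal potassium in control mice called 0 of the 10 genes and 0% of all genes by edgeR, and 0 of the 10 by DESeq2. At an unadjusted p under 0.05, 0 of the 10 genes were higher and 4 were lower in CT-HK, beside 2.21% of all tested genes higher and 1.38% lower. These were Dusp1 (log2 fold change -0.83, SE 0.29), Dusp5 (-1.06, SE 0.47), Dusp8 (-1.10, SE 0.28) and Dusp10 (-0.87, SE 0.33), with edgeR adjusted p of 0.759 for Dusp8 and 1.00 for the other 3. Dusp8 was the 1 gene of the 10 whose CT-HK libraries all lay below the CT-NK libraries, 3.814 CPM at most against 3.853 CPM at least, which 0.0542% of all tested genes did, and on TPM these groups overlapped. The immediate early genes counted below had negative log2 fold changes in 12 of 12 cases, with a median log2 fold change of -0.61, and their part in these differences was not tested. Low against normal potassium in knockout mice called 0 of the 10 genes by edgeR and by DESeq2, beside 0% of all genes by edgeR. At an unadjusted p under 0.05, 0 of the 10 were higher or lower in KO-LK, beside 1.39% of all tested genes higher and 1.44% lower. The log2 fold changes between KO-LK and KO-NK ran from -0.41 (Dusp10) to 0.21 (Dusp1), around a median of -0.24 beside -0.13 for all genes.

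Levels were set in order within each group by TPM, a share of all transcripts that accounts for transcript length. Dusp1 was first in all 4 groups, at 142 ± 24.8 TPM in KO-NK, 163 ± 34.6 TPM in KO-LK and 32.3 ± 15.2 TPM in CT-HK (SD, n = 6 each), and 63.9 ± 33.0 TPM in CT-NK (SD, n = 5). Its libraries did not overlap those of the next gene in any group. In both knockout groups Dusp6, Dusp5 and Spry2 followed, with means of 13.8, 12.1 and 11.3 TPM in KO-NK and 12.7, 10.3 and 8.91 TPM in KO-LK. Dusp5 stood lower in the order of the control groups, below Dusp14 in CT-HK (1.37 beside 1.87 TPM) and below Spry2 in CT-NK (3.31 beside 4.43 TPM). Spry4 was last in all groups, at 0.532 TPM in KO-NK, 0.406 TPM in KO-LK, 0.269 TPM in CT-HK and 0.460 TPM in CT-NK. Apart from the step below Dusp1 and, in CT-NK, the step from Dusp14 to Dusp8, neighbours in each order overlapped in their library ranges.

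Other genes of the pathway were described from lists chosen with earlier results of these data known. Of 13 other phosphatases and feedback inhibitors, 1 was higher and 0 were lower in KO-NK against CT-NK. That gene was Spry1, another Sprouty feedback inhibitor, at 42.4 ± 13.7 CPM in KO-NK (SD, n = 6) and 13.8 ± 8.34 CPM in CT-NK (SD, n = 5), a log2 fold change of 1.62 (SE 0.40, edgeR adjusted p = 0.0365). In KO-LK 0 were higher and 1 was lower than in CT-NK. It was Dusp7, an ERK phosphatase related to Dusp6, at 13.7 ± 2.10 CPM in KO-LK (SD, n = 6) and 21.7 ± 5.77 CPM in CT-NK (SD, n = 5), a log2 fold change of -0.66 (SE 0.17, edgeR adjusted p = 0.0406). Spry1 in KO-LK against CT-NK was at 1.48 (SE 0.40, edgeR adjusted p = 0.051), which did not pass. Nor did Dusp7 in KO-NK against CT-NK, at -0.53 (SE 0.17, edgeR adjusted p = 0.128). Against CT-HK, Spry1 was higher in both knockout groups and Dusp7 lower in KO-LK, with 0 other calls by edgeR. DESeq2 called Spry1 higher and Dusp7 lower in every comparison of knockout with control. It also called Spred1 higher in KO-LK against CT-NK and Dusp19 lower in KO-LK against CT-HK. The list had a median log2 fold change of 0.33 in KO-NK and 0.19 in KO-LK against CT-NK, beside 0.15 and -0.04 for all genes.

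The MAP kinase cascade itself, 27 genes from Ras, its exchange factors and adaptors through Raf and the MAP kinase kinases to the kinases, had 0 calls in either direction in all 6 comparisons by edgeR. At an unadjusted p under 0.05, 0 of 27 were higher and 2 lower in KO-NK, and 2 higher and 1 lower in KO-LK, against CT-NK. Against CT-HK, 0 were higher and 4 lower in KO-NK, and 2 higher and 0 lower in KO-LK, at that level. The shares of all tested genes at that level, given above, were between 5.71% and 10.1% in either direction. DESeq2 called Map2k6, a kinase that activates p38, lower in KO-LK against CT-NK, Map2k2, a kinase that activates ERK, lower in KO-NK against CT-HK, and 0 of the 27 in the other comparisons. These 2 kinase genes were named after their values were seen. The median log2 fold change of the cascade was 0.06 in both comparisons with CT-NK.

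Of 10 genes known as transcriptional outputs of ERK, 1 was higher in KO-NK against CT-NK and 0 were higher in KO-LK against CT-NK by edgeR, where 3 had a positive difference at an unadjusted p under 0.05 and DESeq2 called 2 higher. The gene called in KO-NK was Egr1, an immediate early zinc finger factor, at 2231 ± 426 CPM in KO-NK (SD, n = 6) and 674 ± 375 CPM in CT-NK (SD, n = 5), a log2 fold change of 1.73 (SE 0.36, edgeR adjusted p = 0.0125). Against CT-HK, 3 were higher (Egr1, Fosl1 and Phlda1) and 1 was lower (Ccnd1) in KO-NK, and Egr1, Fosl1 and Phlda1 were higher in KO-LK, names chosen after their values were seen. The list's median log2 fold change was 0.38 in KO-NK and 0.66 in KO-LK against CT-NK.

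Of 10 stress kinase partners and outputs, 3 (Jun, Gadd45b and Zfp36) were higher in KO-NK and 1 (Jun) was higher in KO-LK against CT-NK. Against CT-HK, the same 3 genes and Atf3 were higher in each knockout group, and Gadd45g was higher as well in KO-NK, 5 of 10, against 4 of 10 in KO-LK. Jun, the substrate that gives JNK its name, had 890 ± 275 CPM in KO-NK (SD, n = 6) and 242 ± 154 CPM in CT-NK (SD, n = 5), a log2 fold change of 1.88 (SE 0.39, edgeR adjusted p = 0.0122). Gadd45b, a stress-induced activator of a kinase upstream of p38 and JNK, rose by 2.19 on the log2 scale (SE 0.53, edgeR adjusted p = 0.0320) in the same comparison. Zfp36, an mRNA-decay factor regulated by p38, rose by 1.96 (SE 0.48, edgeR adjusted p = 0.0353). The list's median was 1.00 in KO-NK and 0.74 in KO-LK against CT-NK.

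Of 7 genes induced by corticosteroids, 4 (Sgk1, Zbtb16, Fkbp5 and Tsc22d3) were called lower and 0 higher in each of the 4 comparisons of knockout with control. The fall was not shared by all 7. For KO-NK, 3 of the 7 had a positive log2 fold change with either control group as reference. For KO-LK, 2 did with CT-HK as reference and 0 with CT-NK. At an unadjusted p under 0.05, KO-NK had 2 genes higher and 4 lower than CT-HK. With CT-NK as reference, the list's median was -1.07 for KO-NK and -0.82 for KO-LK. Sgk1, the aldosterone-induced kinase that raises sodium channel activity, had 46.07 ± 11.02 CPM in KO-LK (SD, n = 6) and 608 ± 86.0 CPM in CT-NK (SD, n = 5), a log2 fold change of -3.72 (SE 0.36, edgeR adjusted p = 4.20e-06), in mice that also differed in diet. On the same diet, in KO-NK against CT-NK, it was -2.24 (SE 0.34, edgeR adjusted p = 0.000803). Between the diets in knockout mice, KO-LK against KO-NK, Sgk1 differed by -1.48 (SE 0.32), which edgeR did not call (edgeR adjusted p = 0.244) and DESeq2 called lower. Zbtb16 fell by 1.80 (SE 0.35, edgeR adjusted p = 0.00603) and Fkbp5 by 1.37 (SE 0.27, edgeR adjusted p = 0.00662) in KO-LK against CT-NK, and Tsc22d3 fell by 1.07 in KO-NK against CT-NK (SE 0.21, edgeR adjusted p = 0.00843). Dusp1 is induced by glucocorticoids in many cell types. Its log2 fold changes above were positive in all 4 comparisons of knockout with control, and their relation to corticosteroid signalling was not tested.

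A list of 12 immediate early and handling genes (Fos, Fosb, Jun, Junb, Jund, Egr1, Ier2, Atf3, Btg2, Hspa1a, Hspa1b and Nr4a1), which respond within minutes to dissection or other stimuli, was higher in knockout libraries. Jun and Atf3 are also on the stress kinase list and Egr1 on the ERK output list. Its summed level was 13230 to 20220 CPM in KO-NK and 9250 to 15130 CPM in KO-LK, against 1528 to 6017 CPM in CT-HK and 1287 to 7423 CPM in CT-NK, so that knockout and control libraries did not overlap. Of the 12 genes, 7 were called higher in KO-NK and 5 in KO-LK against CT-NK, and 10 in each knockout group against CT-HK. Its part in the members' differences was not tested, and the time from death to lysis is not given in the labels.

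Because the summed level separates the groups, its relation to each gene is given as deviations from the group means over the 23 libraries, as a description. Dusp5 followed it most closely (Pearson's r = 0.78, Spearman's rho = 0.77), followed by Dusp1 (r = 0.61, rho = 0.64), Spry2 (r = 0.57, rho = 0.57), Dusp4 (r = 0.54, rho = 0.52) and Dusp10 (r = 0.54, rho = 0.45). Dusp8 (r = 0.18, rho = 0.17), Dusp16 (r = 0.27, rho = 0.08) and Dusp6 (r = -0.05, rho = 0.10) showed little relation within groups, and Dusp14 (r = -0.24) and Spry4 (r = -0.15) had negative values. When replicate 5 of CT-NK and that of CT-HK, the libraries farthest from the middle, were left out, r was 0.65 for Dusp5, 0.52 for Dusp1, 0.52 for Spry2, 0.65 for Dusp4 and 0.32 for Dusp10. Values from 1 library share its depth and scaling, so these are not independent measurements.

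**Figure D3:**
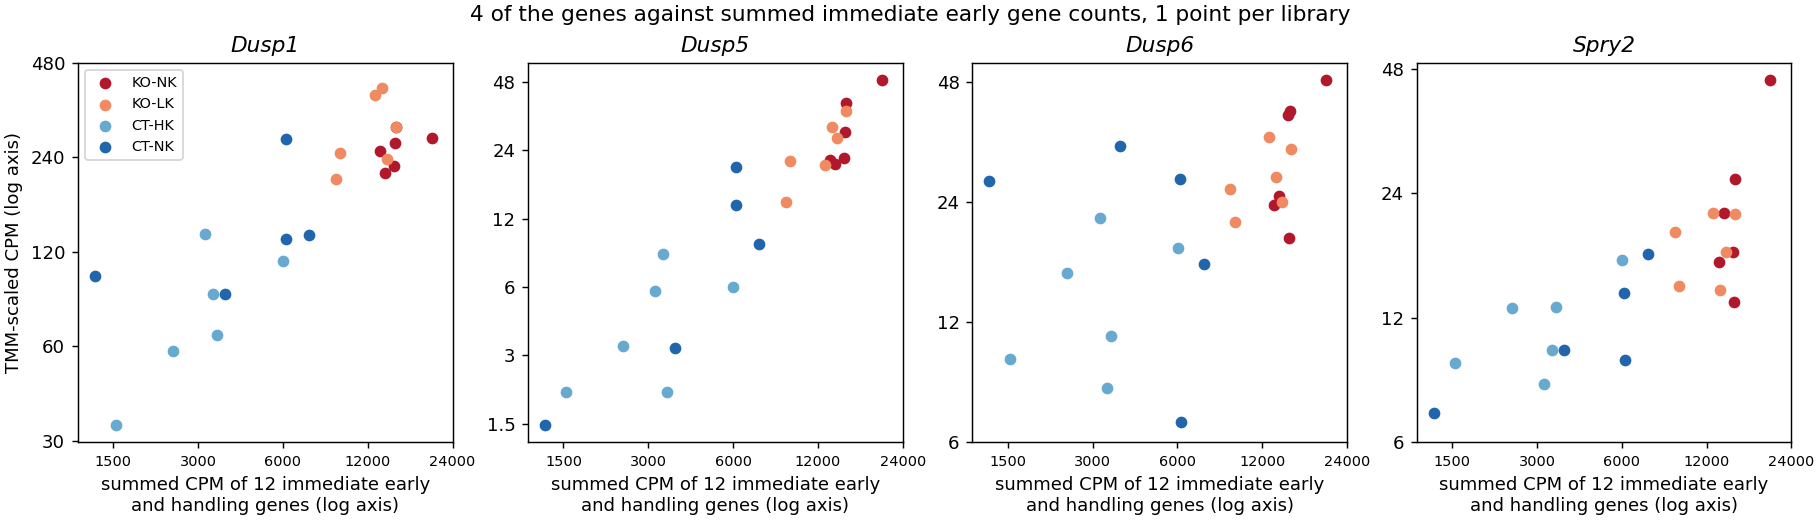
TMM-scaled CPM of Dusp1, Dusp5, Dusp6 and Spry2 (vertical, log axis) against the summed CPM of 12 immediate early and handling genes (horizontal, log axis), 1 point per library, coloured by group. Knockout libraries lie at 9250 CPM or more on the horizontal axis and control libraries at 7423 CPM or less; Dusp5 rises along the axis within groups (r = 0.78), while Dusp6 does not (r = -0.05).

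The 10 genes also varied with each other. After the group means were subtracted, 34 of the 45 pairs had a positive r, with a median of 0.13 and a range from -0.37 to 0.69. The highest pair was Dusp4 with Spry2 (r = 0.69, and 0.63 at the lowest when 1 library was left out), followed by Dusp1 with Dusp5 (r = 0.64, lowest 0.60) and Dusp5 with Dusp10 (r = 0.58, lowest 0.43). Across libraries with the group differences included, 43 of 45 pairs were positive with a median of 0.54, a value that holds the differences between groups. Dusp6 and Spry4, often used together as ERK readouts, had r = 0.42 within groups and 0.35 over all libraries.

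**Figure D4:**
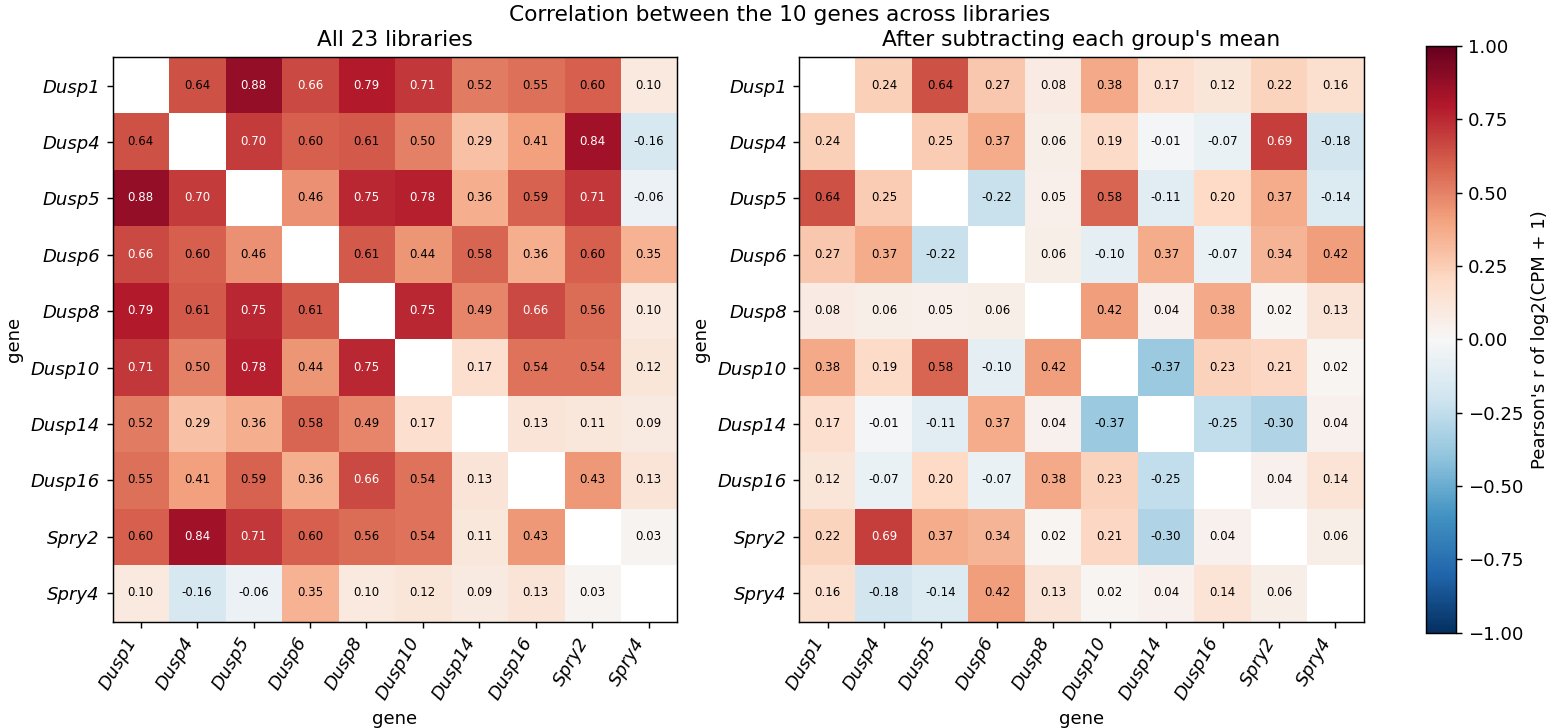
Pearson's r of log2(CPM + 1) between the 10 genes, over all 23 libraries (left) and after subtracting each group's mean (right), on a colour scale from -1 to 1. Most pairs are positive on the left (median 0.54), and on the right the median is 0.13, with Dusp4 and Spry2 (0.69) and Dusp1 and Dusp5 (0.64) highest.

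Among 10589 other genes with a mean of at least 5 CPM, those of highest Pearson's r over the 23 libraries were listed for each gene, group differences included. Dusp5 was closest to Fosb (r = 0.96) and Fos (r = 0.95), which are on the immediate early list. Dusp1 was closest to Ccn1 (r = 0.90) and Trp53 (r = 0.89), Dusp8 to Cdkn1a (r = 0.91) and Myc (r = 0.90), and Dusp10 to Klf6 (r = 0.88) and Nfkbia (r = 0.87). Dusp4 was closest to Pard6b and Tubb2b (r = 0.91 each) and Spry2 to Birc3 and Zswim4 (r = 0.89 each). Dusp6 was close to Arid4a (r = 0.85), Dusp14 to Man1a (r = 0.90) and Plekhm2 (r = 0.82), Dusp16 to Taf4 (r = 0.87) and Ubn2 (r = 0.84), and Spry4 to Rasgrp3 (r = 0.76) and Meis2 (r = 0.71). Within groups these pairs had r of at least 0.68, apart from Dusp8 with Cdkn1a (r = 0.47) and with Myc (r = 0.56). The pairs were picked by r over the same 23 libraries, which includes the deviations within groups. High values within groups therefore follow in part from the choice and are no separate support.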

How the data were processed

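RNA of microdissected tubules was amplified to full-length cDNA (SMART-Seq HT) and made into Nextera XT libraries, per the labels' protocols. Reads were quantified with Salmon 0.14.10 on GRCm38.p6, per the submitters' processing notes; the annotation release is not given in the sources used here. The authors deposited expected counts per gene, of which 35.9% are not whole numbers, and TPM values, in tables of 54393 genes that all matched a GENCODE symbol. After rounding, counts went into edgeR 4.0.16 (under R 4.3.3) with its default low-count filter, TMM scaling, 1 mean per group over all 23 libraries, quasi-likelihood F tests with 19 residual degrees of freedom and Benjamini-Hochberg adjustment over 25829 genes. The common biological coefficient of variation was 0.56, and a gene was called at an adjusted p under 0.05. CPM values are TMM-scaled, and an SE is the absolute log2 fold change divided by the square root of F. The fit was also run on simulated counts with known changes, and the outcome is not given here.

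Members, gene lists and markers were chosen with earlier results of these data known. Named were all members, up to 4 genes per list of smallest p among those called in the comparisons with CT-NK, and the 2 genes most like each member, of which 1 is not reported here. The labels number the libraries as replicates without naming animals, so a p-value reflects only spread among libraries, which may be technical. No library was left out, and no 2 libraries of a group were the same (55 pairs, lowest chi-square per degree of freedom 23.44). Alternatives were DESeq2 1.42.0, its size factors, other low-count filters, limma 3.58.1 on log2(TPM + 1) and log2(TPM + 0.1), a transcript length offset, a replicate block, segment covariates, fits of only the groups compared, and leaving out libraries. Leaving out 5 libraries by TMM-scaled chemosensory CPM was added after seeing the data. Antisense and overlapping genes are uncertain, as strand use is not stated.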

Additional observations from a re-analysis of the deposited data

Results flagged for a closer look

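In 5 of 40 sets of 1 gene in 1 group, a single library stood apart from the rest of its group by Dixon's criterion at the 95% level, which chance alone meets in about 1 of 20. Dusp1 reached 275.2 CPM in CT-NK replicate 3, beside 136.0 CPM in the next library. Dusp4 had a high library in 3 groups: 16.31 CPM in KO-NK replicate 2, with the next at 10.36 CPM, 8.984 CPM in CT-HK replicate 1, with the next at 3.847 CPM, and 5.06 CPM in CT-NK replicate 1, with the next at 2.719 CPM. Dusp14 reached 10.52 CPM in CT-HK replicate 6, beside 3.35 CPM in the next library, and that library also had the highest summed proximal tubule markers, 26780 CPM.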

How the results depend on the processing

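Members called kept to 1 direction, higher, under every alternative. Up to the diet comparisons, brackets give the number of all tested genes called higher in the same fit, of 25829 unless stated. In KO-NK against CT-NK the count of members was 1 (242). It was 4 with DESeq2 (581), 2 with DESeq2's size factors (280) and 5 with the stricter filter (1060 of 12421). The stricter filter left only 8 members for testing, here and in the comparisons below. Limma gave 6 on log2(TPM + 1) (2907) or log2(TPM + 0.1) (2940), and the replicate block gave 3 (222). Segment covariates gave 2 (148), and leaving out the 8 libraries rich in chemosensory receptor counts gave 0 (103 of 22357). In KO-LK against CT-NK the count was 1 (236). It was 4 with DESeq2 (569), 3 with the stricter filter (1015 of 12421) and 6 with either limma fit (4170 and 4158). The length offset gave 2 (305), and only these groups gave 2 (316 of 22432). The count was 0 with segment covariates (40) and without those 8 libraries (52 of 22357). Without the 2 libraries richest in proximal tubule counts it was also 0 (143 of 26968). In KO-NK against CT-HK the count was 7 (636), and 4 with no filter (315 of 51822). In KO-LK against CT-HK the count was 3 (568). It was 6 with DESeq2 (773) or the stricter filter (1392 of 12421). The limma fits gave 8 and 9 (6632 and 6730), and only these groups gave 8 (1804 of 20936). The count was 5 with the length offset (709), the replicate block (428), segment covariates (401) or without the proximal-rich libraries (463 of 26968). The diet comparisons stayed at 0 throughout. Leaving out each of the 23 libraries gave 1 to 3 calls in KO-NK against CT-NK (2 or 3 without replicate 1, 2, 3 or 4 of CT-NK, any replicate of KO-LK, or replicate 3, 5 or 6 of KO-NK), 0 to 3 in KO-LK against CT-NK (0 without replicate 2 or 5 of CT-NK, 2 or 3 without replicate 5 or 6 of CT-HK, 3 of CT-NK or 3 of KO-NK), 6 to 8 in KO-NK against CT-HK and 3 to 8 in KO-LK against CT-HK (5 to 8 without replicate 6 of CT-HK, 2, 5 or 6 of KO-LK, or 2, 3, 4, 5 or 6 of KO-NK). Dusp4 in KO-NK against CT-NK passed in all 23. It was lost in KO-LK against CT-NK without replicate 2, 4 or 5 of CT-NK (log2 fold change 1.49 to 1.54) and in KO-NK against CT-HK without replicate 2, 3, 5 or 6 of CT-HK (1.20 to 1.25). On the TPM scale 95.6% to 97.1% of all called genes were higher, against 40.1% to 55.1% on counts, and the median of all genes in KO-LK against CT-HK was 0.23 or 0.45 in place of -0.01, relative to which the members' median was 0.82 or 1.10, beside 1.00 on counts. The replicate block gave 6 calls in KO-NK against CT-HK, losing Dusp6 (log2 fold change 1.20, adjusted p = 0.0502). Equal replicate numbers did not meet the criterion for pairing, a correlation of deviations above 0.1 in every same-numbered pair. The lowest was between -0.61 and -0.17 in each pair of groups. Same-number medians were 0.36 for KO-NK and KO-LK (other numbers -0.09), 0.38 for CT-HK and CT-NK (other numbers 0.02) and -0.34 to -0.17 between knockout and control groups. The cause of these differences was not tested. Values near 0, none of them called, changed sign: Dusp10 in KO-LK against CT-NK to -0.17 with covariates, -0.14 and -0.04 without 8 or 5 chemosensory-rich libraries and -0.05 without the proximal-rich ones (-0.05 to 0.45 leaving 1 library out); Dusp14 in KO-LK against KO-NK to 0.00 with no filter, 0.02 with either limma fit, 0.03 with the length offset or the block, 0.51 with covariates and 0.11 without the 8 libraries (-0.06 to 0.16); Dusp16 in that comparison to 0.01 with no filter and 0.04 without the 5 libraries (-0.05 to 0.13); Dusp8 there to 0.01 with no filter, 0.07 and 0.11 with limma and 0.18 with the length offset (-0.07 to 0.18); Dusp4 there only when 1 library was left out (-0.30 to 0.01). Spry2 in CT-HK against CT-NK changed to -0.06 with the stricter filter, -0.13 and -0.16 with limma, -0.05 with the length offset, -0.01 with only these groups, -0.04 without the proximal-rich or the 5 libraries and -0.10 without the 8 (-0.12 to 0.20). Spry4 changed to -0.03 with DESeq2 or its size factors, -0.04 with no filter and -0.25 without the 8 libraries in KO-LK against CT-HK (-0.15 to 0.31), to 0.06 and 0.14 with limma and 0.08 with covariates in KO-NK against CT-NK (-0.46 to 0.01), and to 0.05 without the 5 libraries in KO-LK against KO-NK. The lowest estimated count in a library was 19 for Spry4 and 37 for Dusp4.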
